A study of Mus musculus with 24 samples.

Results

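Mouse embryos that each grew from 1 blastomere of a two-cell embryo were compared, as blastocysts, with blastocysts grown from undivided embryos. The comparison held 9 of the 24 single-embryo libraries of the study, namely 6 split and 3 intact blastocysts. Members were taken by the names of the libraries. A split embryo was named by its pair (1 to 3) and its blastomere (1 or 2), so that embryos 1_1 and 1_2 are sisters from 1 two-cell embryo. All embryos came from ICR mice, an outbred stock, by in vitro fertilization, and were kept at 37 °C under 6% CO2 and 5% O2. For splitting, late two-cell embryos were moved to a biopsy medium (G-PGD), their blastomeres were parted with a micromanipulator, and each blastomere was cultured singly in a gel of modified sodium hyaluronate. The intact embryos were cultured alongside under matched conditions. Whether they also lay in the gel or passed through the biopsy medium is not given in the labels, so splitting, handling and gel cannot be told apart. The labels carry no age of the donors, sex, litter or batch. RNA of each embryo was reverse transcribed from the poly(A) tail (Smart-seq2, a method for very small inputs) and sequenced. The other libraries were 4 intact 8-cell embryos, 5 intact morulae and 6 split morulae (3 pairs), which enter here through the shared estimate of spread and a comparison of stages.

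A mouse two-cell blastomere can form a whole blastocyst, but it does so from less cytoplasm and reaches cavitation with fewer cells than an undivided embryo. The blastocyst has an outer epithelium, the trophectoderm, which pumps fluid into the cavity, and an inner cell mass that sorts into epiblast and primitive endoderm. Position, contact and the Hippo pathway set these fates, while the embryo shifts from pyruvate towards glucose use, its mitochondria mature, and protein synthesis and turnover rise.

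Levels below are normalised read counts in CPM (the share of a library's counts, in parts per 1e+06, after edgeR's TMM scaling). Both sisters of a pair share an origin, so their counts were summed and a pair stood for 1 embryo in every test (3 pairs against 3 intact embryos). Means are given ± SD over these 3 units, and log2 fold changes (split over intact) ± SE. A gene was called where the Benjamini-Hochberg adjusted p of edgeR's quasi-likelihood F test was below 0.05 over the 15875 genes tested. CPM are shares of a library, so fewer cells of a type and less RNA per cell cannot be told apart. The labels do not say whether the intact embryos came from separate litters or cultures, so p-values measure only the spread between these embryos.

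The libraries carried blastocyst markers in both groups. Gata3, a trophectoderm transcription factor, lay at 619.8 to 1078 CPM (median 788) in the split embryos and at 1051, 605 and 607 CPM in the intact ones. Nanog, an epiblast factor, lay at 125 to 285 CPM (median 205) in the split embryos and at 178, 221 and 157 CPM in the intact ones. Of the primitive endoderm markers Gata6 was present in all 9 embryos, while Gata4 and Sox17, which mark later primitive endoderm, stayed at or below 4.14 CPM in each. Total counts were 13439059 to 25228658 in the split and 11316911 to 12653788 in the intact embryos, so every split library was deeper than every intact one. Summed counts of Y-linked genes were 3, 0, 2655, 3481, 1 and 4 in embryos 1_1 to 3_2, and 2659, 3770 and 0 in the intact embryos. Sisters therefore matched in sex in all 3 pairs, and Y-linked transcripts were present in 1 of 3 pairs and in 2 of 3 intact embryos. Xist, an X-linked noncoding RNA, had 1727, 3608, 1, 1, 2153 and 3044 counts in embryos 1_1 to 3_2, and 317, 177 and 6137 in the intact ones. Intact embryos 1 and 2 thus held both Y-linked and Xist counts, while split embryos 2_1 and 2_2 had 1 Xist count each. The cause was not tested. Of the 752 genes called below, 736 had a known chromosome, and of these 13 lay on the X and 0 on the Y. Of 14339 tested genes with a known chromosome, 487 lay on the X. Both groups held embryos with and without Y-linked transcripts, so the lack of Y calls does not measure the part of sex.

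Genes that would mark other cells were scarce. Among markers of cumulus and granulosa cells 10 of 17 had no count in any of the 9 embryos (Fshr, Lhcgr and Cyp19a1 among them), and their summed level was 4.77 to 28.9 CPM in split and 10.8 to 23.2 CPM in intact embryos. Sperm markers, with 5 of 14 at 0 (Tnp1 and Acr among them), summed to 18.7 to 60.2 CPM and 53.3 to 62.2 CPM. Blood markers, with 5 of 15 at 0 (Ptprc and Tyrobp among them), summed to 3.401 to 34.6 CPM and 6.45 to 20.3 CPM. Fibroblast markers summed to 18.1 to 43.3 CPM in split and 8.77 to 15.9 CPM in intact embryos, a sum made up mostly of Fbln1, while Col1a2, Col3a1, Dcn and Lum were at 0 and Col1a1 had 342 counts over the 6 split and 2 over the 3 intact embryos. None of the tested genes of these lists was called.

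The embryos differed as whole libraries too. Distance was taken as 1 minus Pearson's r of log2 CPM. Sisters of pairs 1 and 3 lay 0.0879 and 0.0908 apart, and the sisters of pair 2 lay 0.156 apart. Intact embryos lay 0.105 to 0.118 from each other, and split embryos lay 0.113 to 0.180 from intact ones (median 0.143). Embryo 2_1 stood apart, at 0.145 or more from every other embryo, so the count of calls is also given without it, as are list counts that change without it by more than 1 gene or to 0. With 11316911 counts drawn from each library, 13279 ± 764 genes had a count in the split pairs (mean of sisters, n = 3) and 14634 ± 786 in the intact embryos (n = 3). The difference of -1356 genes had p = 0.1 in a two-sided exact permutation test, the smallest p that 3 against 3 can give. It was -842.5 genes where 10 counts were asked for (p = 0.1), and in the libraries as deposited, which are deeper for the split embryos, -670.3 at 5 counts and -403 at 10 counts (exact permutation p = 0.6 for both). Transcripts of the 13 protein genes of the mitochondrial genome took 0.841 to 2.34% of counts in the split and 3.47 to 4.85% in the intact embryos, without overlap (exact permutation p = 0.1). Depth, genes detected, the mitochondrial share and the mix of sexes thus moved with the groups, and their part in the results below was not tested.

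**Figure D1:**
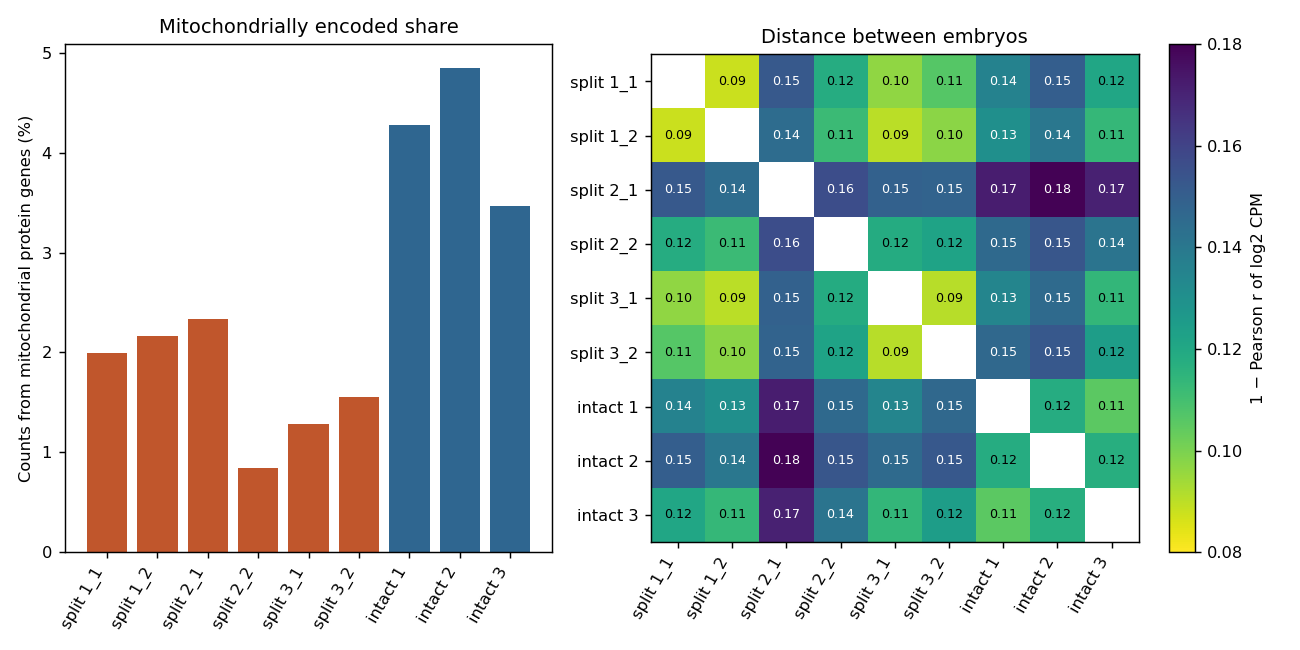
Left, share of each library's counts (%) from the 13 mitochondrially encoded protein genes, 1 bar per embryo; the 6 split embryos lie at or below 2.34% and the 3 intact ones at or above 3.47%. Right, distance between each 2 of the 9 blastocysts (1 minus Pearson's r of log2 CPM); split embryo 2_1 is the farthest from the rest.

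Between split and intact blastocysts 752 genes differed (4.74% of those tested). Of these, 543 were higher in split blastocysts (3.42%) and 209 lower (1.32%), with a median called change of 2.52-fold. Among the more abundant genes, those whose log2 CPM averaged 6 or more, the shares were 16.1% higher and 5.7% lower. All 6 split embryos lay above or below all 3 intact ones in 696 of the 752, against 9.28% (above) and 8.15% (below) of all genes tested. The calls rest on the counts of these same embryos, so the 696 are a description and no separate support. Sisters were counted singly here. The split into higher and lower genes depended on the model. Higher genes made up 72.2% of the calls here, 57.0% where only the blastocyst groups were fitted (2037 calls) and 58.1% with the replicate number as a block (2218 calls). They made up 62.5% with DESeq2 (1407 calls), 82.0% without split pair 3, 48.7% where limma-voom took the origin as a random effect (585 calls) and 40.3% with limma on the deposited TPM (944 calls). The last 2 models moved the median of all genes by -0.29 and -0.14 on the log2 scale. Leaving out split pair 1, split pair 3, intact embryo 1 or intact embryo 2 left 455, 445, 408 and 463 calls. Without embryo 2_1 there were 743 calls, of which 676 were among the 752.

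**Figure D2:**
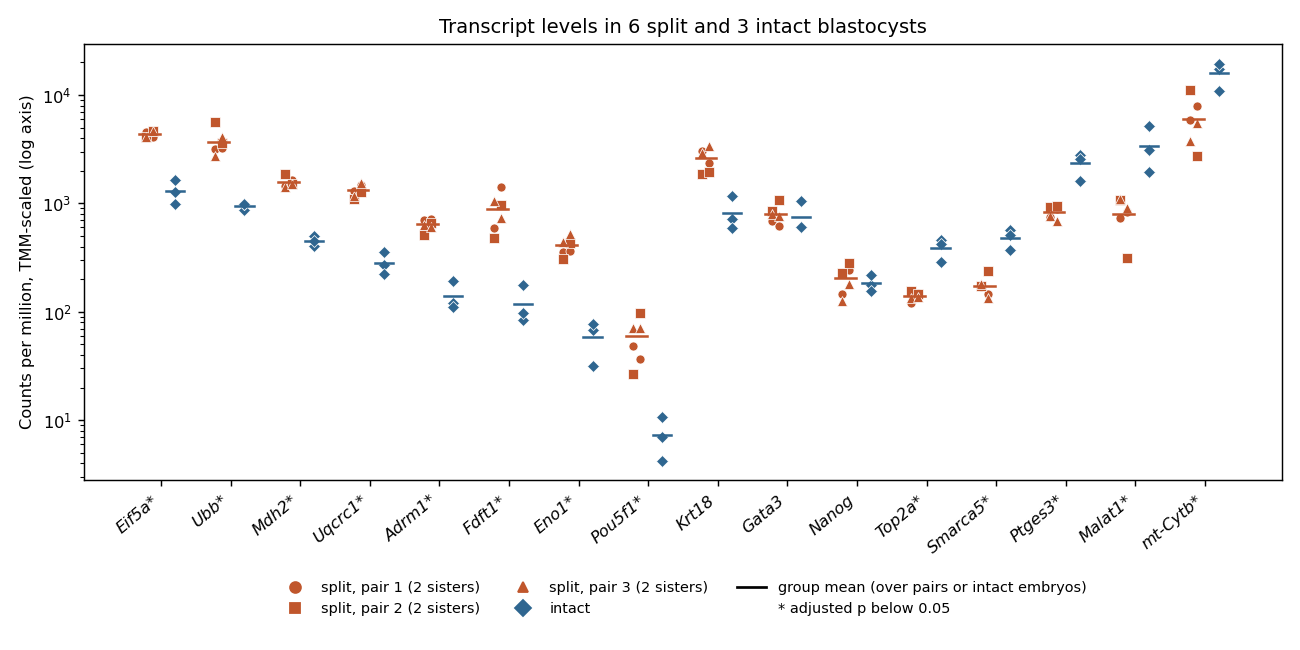
Level of 16 transcripts (CPM, log axis) in the 6 split blastocysts, with 1 symbol per pair, and the 3 intact ones; lines are group means and stars mark genes past the test. For Eif5a, Ubb, Fdft1 and Pou5f1 every split embryo lies above every intact one, for Top2a, Smarca5, Ptges3 and Malat1 below, and for Gata3 and Nanog the groups overlap.

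Transcript length moved with the difference. Genes called higher had a median length of 2805 bases and genes called lower 7508 bases, against 3786 bases over all genes with a length. In 8 bins of equal size the median log2 fold change was 0.45 and 0.46 in the second and the third bin (median lengths 1776 and 2567.5 bases) and -0.64 in the longest (median 10958 bases), where 13 genes were called higher and 89 lower. The longest bin took 6.48 to 7.30% of CPM in the split embryos and 10.97 to 11.9% in the intact ones, without overlap. In the shortest bin (median 857 bases) the median was 0.01. Once each unit's own trend with length was taken out, 402 genes were called, 329 of them among the 752, with 272 higher (1.71% of genes tested) and 130 lower (0.819%). Counts of list members are also given with the length trend out for every list with a call that is described, and the part of length in any single gene's difference was not tested.

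**Figure D3:**
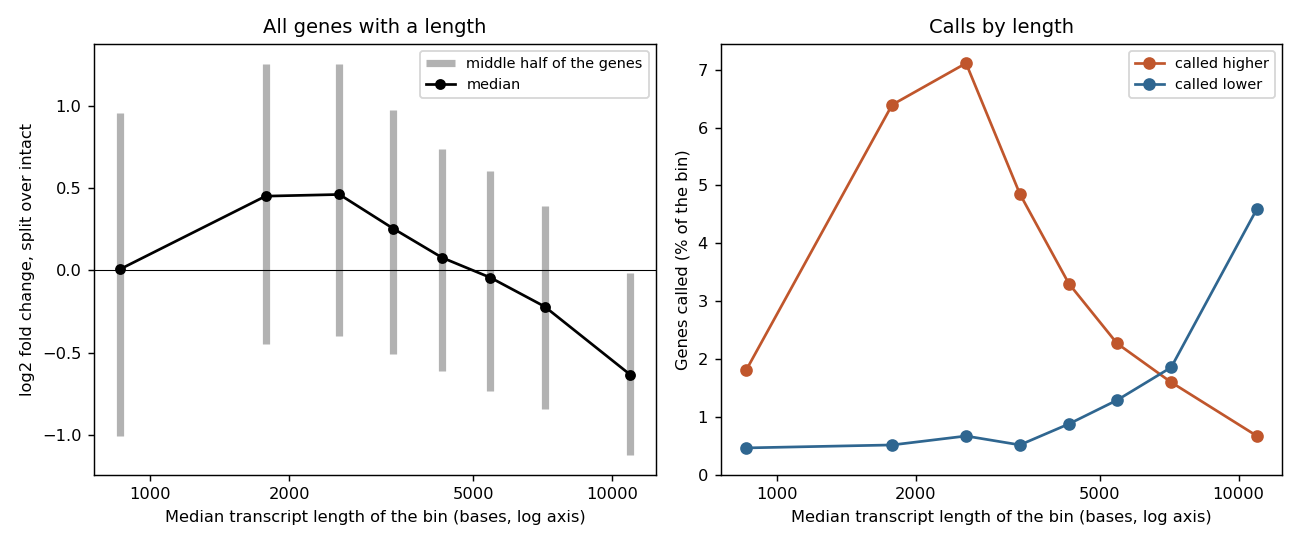
Left, log2 fold change (split over intact) in 8 bins of transcript length, as the median with the first to the third quartile; right, percent of each bin called higher or lower. Calls of higher genes peak in the third bin (138 genes) and calls of lower genes in the longest (89 genes).

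The lists of genes were read against these shares, of which the plot of called members per list gives an overview. Of abundant genes 16.1% were called higher. Several lists with a median log2 CPM above 6 lay below that share. They were cytosolic ribosomal (13.75%), export and 3′ end (12.9%), mitotic (12.8%), sterol and fatty acid (9.09%) and complex I (8.33%) genes, among others. The pentose phosphate and TCA list, at 19.4%, lay near it.

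**Figure D4:**
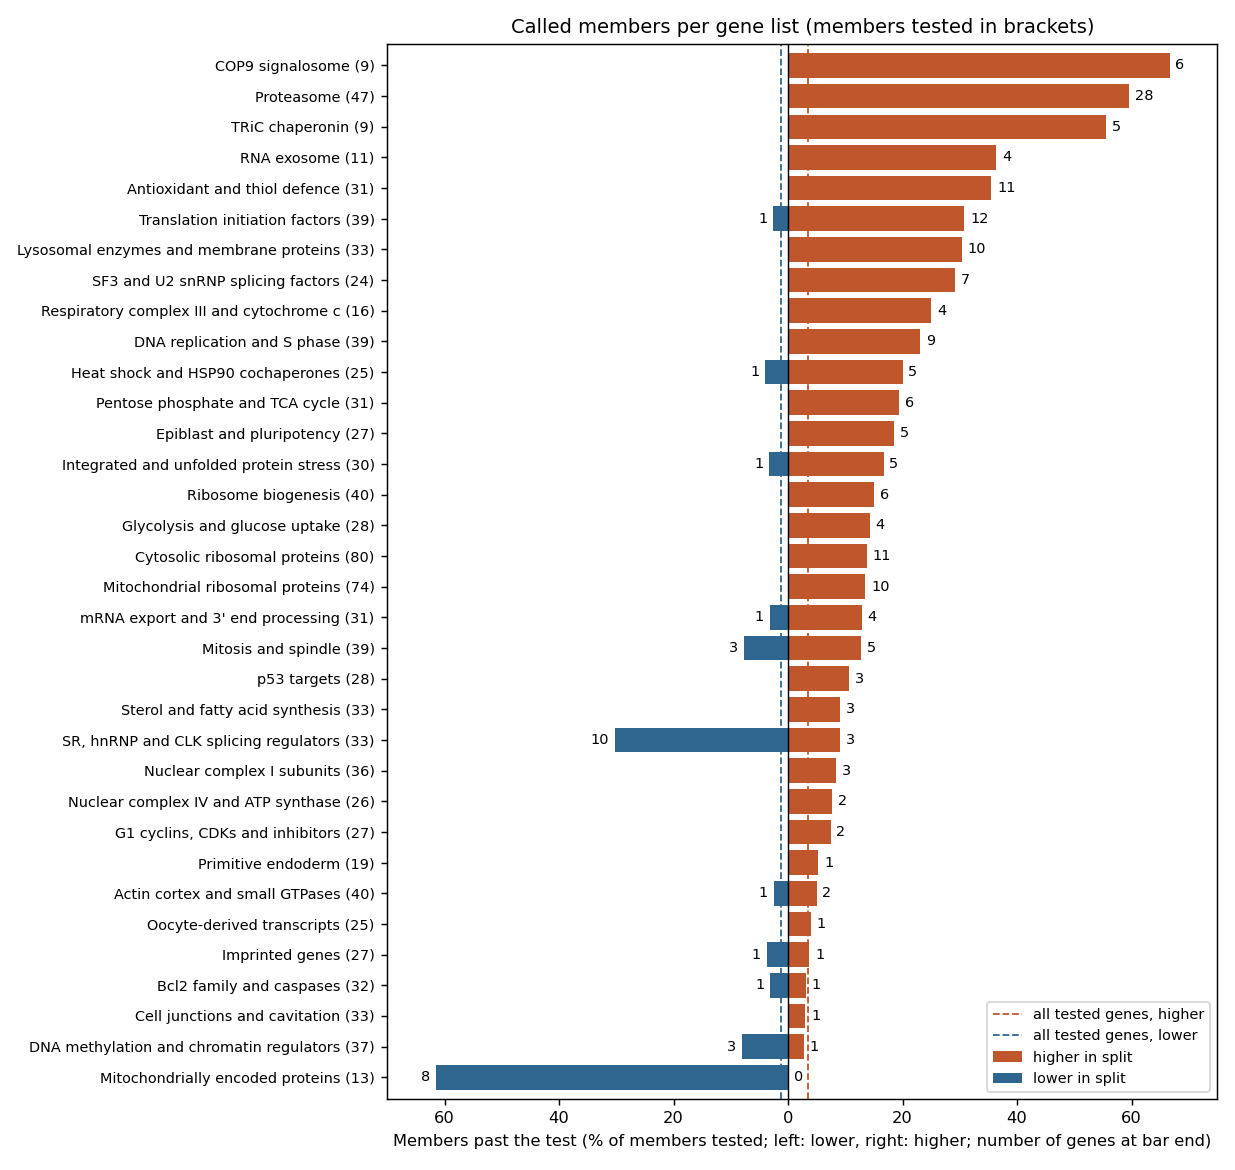
Members past the test in each of 34 gene lists with at least 9 members tested and a call, as percent of the members tested (higher in split to the right, lower to the left; numbers of genes at the bar ends); dashed lines are the shares over all genes, 3.42% higher and 1.32% lower. The proteasome bar holds 28 of 47 genes and the bar of mitochondrially encoded proteins 8 of 13.

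Protein turnover gave the largest count among the pathway lists. The proteasome is a barrel of alpha and beta rings that cuts proteins, with a cap whose ATPases unfold proteins tagged with ubiquitin. Of 47 proteasome genes tested, 28 were higher in split blastocysts and none was lower, against 3.42% and 1.32% of all genes. The median log2 fold change over the 47 was 0.89, against 0.00 over all genes. Called members were 5 of 7 alpha-ring genes, 5 of 7 beta-ring genes, 5 of 6 cap ATPases, 9 of 12 other cap genes, 3 of 7 assembly chaperones and 1 of 8 activators, inhibitors and alternative subunits. The count was 28 without embryo 2_1 and 18 with the length trend out, and lay between 18 and 36 over the 20 alternative analyses.

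Adrm1, the ubiquitin receptor of the cap, lay at 516 to 716 CPM (median 648) in the split embryos and at 121, 111 and 191 CPM in intact embryos 1 to 3. The split embryos were all above the intact ones, with means of 641 ± 59.99 against 141 ± 43.9 CPM (log2 fold change 2.18 ± 0.23, adjusted p = 1.26e-05). Psmb7, which carries one of the catalytic sites of the beta ring, lay at 358 to 485 CPM (median 399.7) and at 115, 148 and 113 CPM, again without overlap (log2 fold change 1.74 ± 0.18, adjusted p = 1.26e-05). Psmb3 lay at 1123 to 1341 CPM (median 1217) and at 409, 459 and 466 CPM (log2 fold change 1.46 ± 0.16, adjusted p = 1.47e-05). Psmd4, a second ubiquitin receptor, lay at 675 to 845 CPM (median 768) and at 340.4, 269.97 and 288 CPM (log2 fold change 1.37 ± 0.16, adjusted p = 4.46e-05). These 4 kept their call in all 20 alternatives. The exceptions were named after their values had been seen. Psma3 and Psmb1, both of the core, had log2 fold changes of 0.24 ± 0.18 and 0.42 ± 0.17 (adjusted p = 0.634 and 0.218), and the alternative activators Psme3 and Psme4 had -0.44 ± 0.28 and -0.72 ± 0.33 (adjusted p = 0.525 and 0.293). Ubb, a polyubiquitin gene, lay at 2748 to 5659.8 CPM (median 3394) in the split embryos and at 872, 990.4 and 979 CPM in the intact ones. Its means were 3725 ± 688 against 947 ± 65.2 CPM (log2 fold change 1.98 ± 0.25, adjusted p = 5.8e-05), and its call held in all 20 alternatives.

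**Figure D5:**
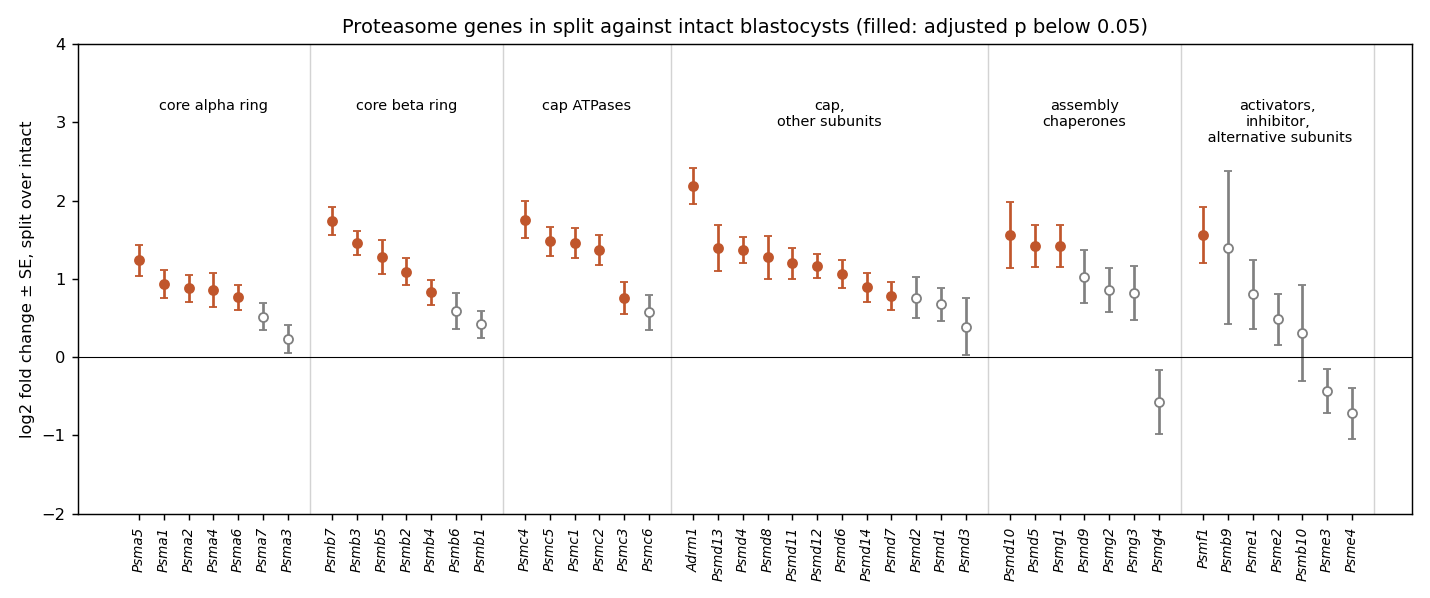
Log2 fold change ± SE of 46 of the 47 tested proteasome genes by role in the complex; filled symbols passed the test, open ones did not. Psma8, at means of 1.54 CPM in split and 3.08 CPM in intact embryos and with an SE of 2.43, is not drawn.

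Because proteasome genes can be driven together through antioxidant response elements, RefSeq promoters (250 bases before to 50 after each start, build GRCm38.p6) were searched on both strands for the core of this element, TGACNNNGC, a choice made after the values had been seen. A match stood in 3 of 26 promoters of the called proteasome genes that the table held (24 genes), or 11.5%, and in 12.4% of all 32851 promoters. The stretches around 2 of these matches are shown, with the match in capitals, since Adrm1 had the largest fold change of the list and Psmb5 encodes a catalytic subunit of the core (318 ± 38.02 against 131 ± 18.4 CPM, log2 fold change 1.28 ± 0.22, adjusted p = 0.00114). The Adrm1 stretch lies at chr2:180171400-180171460 (plus strand) and the Psmb5 stretch at chr14:54618008-54618068 (minus strand).
Adrm1: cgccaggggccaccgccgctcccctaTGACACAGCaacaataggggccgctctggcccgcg
Psmb5: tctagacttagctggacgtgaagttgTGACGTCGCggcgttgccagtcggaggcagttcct
The share among called proteasome promoters was no higher than that of all promoters, and the share over the 42 promoters of all tested proteasome genes was 16.7%. Of the other motifs searched, the core GCATGCGC of nuclear respiratory factor 1 (NRF1) was in 3 of the 26 promoters (11.5%, against 2.71% of all promoters). This is a different motif from the antioxidant response element. The E-box CACGTG was in 1 (3.85% against 7.15%) and CCAAT in 10 (38.5% against 37.4%). The cAMP response element TGACGTCA and the sterol core TCACNCCAC were in 0 (against 1.79% and 1.24%). A match is a description of the letters only.

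Other complexes of protein handling were examined after the called genes had been seen, so their counts describe a choice. TRiC is the ring chaperonin that folds actin and tubulin. Of its 9 genes tested 5 were called higher and 0 lower (median log2 fold change 0.89, 6 higher with the length trend out). Cct7 lay at 926 to 1053 CPM (median 1001) in the split embryos and at 318, 342 and 379 CPM in the intact ones (log2 fold change 1.52 ± 0.17, adjusted p = 1.47e-05), and Tcp1 at 482 to 627 CPM (median 547) and 153, 232 and 177 CPM (log2 fold change 1.56 ± 0.20, adjusted p = 7.47e-05). Cct2 did not pass, at 437 ± 29.04 against 493 ± 27.98 CPM (log2 fold change -0.18 ± 0.23, adjusted p = 0.884). The COP9 signalosome, which takes the tag Nedd8 off ubiquitin ligases, had 6 of 9 genes higher and 0 lower (median 1.38, 3 higher with the length trend out). Cops6 lay at 402 to 546 CPM (median 429) and 143, 113 and 143 CPM (log2 fold change 1.77 ± 0.27, adjusted p = 0.000332). Of 33 lysosomal enzymes and membrane proteins, 10 were higher and 0 lower (median 1.01, 9 higher with the length trend out, 8 without embryo 2_1, 0 with limma-voom and the origin as a random effect). Ctsa, cathepsin A, lay at 197 to 561 CPM (median 374) and 69.02, 95.96 and 82.9 CPM (log2 fold change 2.13 ± 0.30, adjusted p = 0.000155). Of 11 RNA exosome genes, which encode a machine that trims and degrades RNA, 4 were higher and 0 lower (3 higher with the length trend out), with Exosc9 at 99.9 ± 12.6 against 28.4 ± 6.28 CPM (log2 fold change 1.81 ± 0.30, adjusted p = 0.000836).

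Of 39 initiation factors, 12 were higher and 1 lower (median 0.33, 8 higher and 1 lower with the length trend out). Eif5a, a factor that helps ribosomes past stalling stretches, had 4585, 4114, 4108, 4648, 4113 and 4652 CPM in split embryos 1_1 to 3_2 and 1273, 979.5 and 1638 CPM in the intact ones. Split embryos lay close together and all above the intact ones (4387 ± 43.4 against 1297 ± 329.9 CPM, log2 fold change 1.76 ± 0.22, adjusted p = 5.75e-05). Eif2s1, the regulated subunit of eIF2, lay at 717 to 906 CPM (median 767) and 334, 349.8 and 305 CPM (log2 fold change 1.27 ± 0.14, adjusted p = 1.52e-05). Of the exchange factor eIF2B, which reloads eIF2, 4 subunit genes were called higher, Eif2b3 among them at 166 to 299.9 CPM (median 253) and 64.2, 86.5 and 78.6 CPM (log2 fold change 1.71 ± 0.23, adjusted p = 8.61e-05). Eif3m was higher (369.9 ± 41.6 against 137 ± 9.55 CPM, log2 fold change 1.44 ± 0.17, adjusted p = 5.22e-05). Eif3a, the largest subunit of eIF3, was the lower one, at 177 to 296 CPM (median 250.04) and 485, 488 and 525 CPM (log2 fold change -1.04 ± 0.16, adjusted p = 0.000443). Eif5a, Eif2s1, Eif2b3 and Eif3m kept their calls in all 20 alternatives.

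Of 80 cytosolic ribosomal protein genes, 11 were higher and 0 lower (median 0.21), but with the length trend out 1 was higher and 4 were lower (median -0.22), so no direction held for the family. Rpl15 lay at 761 ± 70.8 against 366 ± 83.7 CPM (log2 fold change 1.06 ± 0.19, adjusted p = 0.00132) and Rps6 at 1465 ± 180.4 against 764 ± 210.5 CPM (log2 fold change 0.94 ± 0.19, adjusted p = 0.00468), and both lost the call in 1 of 20 alternatives. Counts of these genes are uncertain, since processed copies elsewhere in the genome can share their reads. Of 74 mitochondrial ribosomal proteins, which build the ribosome of the organelle, 10 were higher and 0 lower (13.5%, median 0.49, 3 higher with the length trend out). Mrpl4 was among them (186 ± 15.7 against 58.5 ± 15.98 CPM, log2 fold change 1.67 ± 0.25, adjusted p = 0.000243). Of 40 genes of ribosome biogenesis 6 were higher and 0 lower (15%, median 0.17, 3 higher and 1 lower with the length trend out). The shares of both lists, whose members are mostly abundant, lie below the 16.1% of abundant genes called higher. Nop56, a core protein of box C/D particles that guide rRNA modification, lay at 388 to 539 CPM (median 495) and 183, 169 and 226 CPM (log2 fold change 1.34 ± 0.20, adjusted p = 0.000354).

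The genes of RNA splicing parted by class. Of 24 genes listed as SF3 and U2 snRNP factors, 7 were higher and 0 lower (median 0.42, 4 higher with the length trend out). The list also holds proteins of other snRNPs, Snrpa among them, so it is no single complex. Snrpa lay at 156 to 298 CPM (median 253) and 57.6, 61.5 and 73.8 CPM (log2 fold change 1.94 ± 0.24, adjusted p = 5.86e-05), and Sf3b4 at 74.02 to 148 CPM (median 113) and 18.7, 9.77 and 28.9 CPM (log2 fold change 2.58 ± 0.48, adjusted p = 0.0024). Of 33 splicing regulators (SR proteins, hnRNPs and CLK kinases), 3 were higher and 10 lower (median -0.27, 4 higher and 8 lower with the length trend out). Hnrnpa2b1, an RNA-binding protein of splicing and transport, lay at 315 to 507 CPM (median 399.5) and 1045, 933 and 743 CPM, with the split embryos all lower (log2 fold change -1.20 ± 0.22, adjusted p = 0.0016). Hnrnpd (log2 fold change -1.33 ± 0.26, adjusted p = 0.00311) and Hnrnpdl (log2 fold change -1.34 ± 0.29, adjusted p = 0.00611) were lower as well. Hnrnpk was among the 3 higher genes, at 769 to 1142 CPM (median 913) and 465, 422 and 392 CPM (log2 fold change 1.16 ± 0.15, adjusted p = 7.47e-05). Hnrnpk, Hnrnpa2b1, Hnrnpd and Hnrnpdl kept their calls in all 20 alternatives, while Clk3, a kinase of SR proteins (59.2 ± 9.66 against 8.32 ± 7.92 CPM), lost it in 6.

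At the 3′ ends of transcripts and in export, 4 of 31 genes were higher and 1 lower, against 0 higher and 1 lower with the length trend out. The higher count was 1 without split pair 3, intact embryo 1 or intact embryo 2, and 2 without split pair 1. Thoc3 and Thoc6, of the THO export complex, were higher (log2 fold change 0.95 ± 0.19, adjusted p = 0.00327, and log2 fold change 1.49 ± 0.35, adjusted p = 0.0137). Pcf11, which couples cleavage to the end of transcription, lay at 7.29 to 20.3 CPM (median 9.62) and 56.8, 64.5 and 39.05 CPM (log2 fold change -2.21 ± 0.37, adjusted p = 0.000924). Cstf2t, a cleavage factor whose gene has no introns and a close relative on the X, lay at 2.85 to 17.4 CPM (median 12.9) in the split embryos and 51.2, 108 and 49.5 CPM in the intact ones (log2 fold change -2.54 ± 0.42, adjusted p = 0.000761). Both lay lower in all 6 split embryos. Malat1, a long noncoding RNA kept in the nucleus, lay at 317 to 1088 CPM (median 869) in the split embryos and at 5129.6, 1929 and 3103 CPM in the intact ones. No split embryo reached the lowest intact one (806 ± 169 against 3387 ± 1619 CPM, log2 fold change -2.07 ± 0.37, adjusted p = 0.00218), and the call held in all 20 alternatives. Of 7 nuclear noncoding RNAs tested, a set chosen after the values had been seen, Malat1 and Kcnq1ot1 were lower and 0 higher (1 lower with the length trend out). Neat1 had 23.4 ± 18.5 against 44.04 ± 17.3 CPM (log2 fold change -0.91 ± 0.72, adjusted p = 0.66).

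In energy metabolism single nuclear genes stood out. Mdh2, malate dehydrogenase of the TCA cycle, lay at 1422 to 1881 CPM (median 1505) in the split embryos and at 498, 401 and 451 CPM in the intact ones, without overlap (log2 fold change 1.80 ± 0.18, adjusted p = 1.26e-05). Of 31 genes of the pentose phosphate pathway and TCA cycle 6 were higher and 0 lower (median 0.74, 3 higher with the length trend out). Taldo1, transaldolase, lay at 268 ± 41.2 against 76.2 ± 8.18 CPM (log2 fold change 1.81 ± 0.29, adjusted p = 0.000566) and Pdhb, of pyruvate dehydrogenase, at 714 ± 106 against 351 ± 24.96 CPM (log2 fold change 1.02 ± 0.18, adjusted p = 0.00148). Of 16 genes of respiratory complex III and cytochrome c, 4 were higher and 0 lower (median 0.12, -0.16 with the length trend out). Uqcrc1, a core subunit, lay at 1096 to 1536 CPM (median 1275) and 273, 224 and 356 CPM (log2 fold change 2.21 ± 0.24, adjusted p = 1.47e-05), Uqcrc2 at 274 to 418 CPM (median 352) and 95.7, 154 and 123 CPM (log2 fold change 1.53 ± 0.21, adjusted p = 0.000155), and Cyc1, cytochrome c1, at 654 ± 145 against 229.8 ± 42.9 CPM (log2 fold change 1.51 ± 0.21, adjusted p = 0.00013). These 3 kept their calls in all 20 alternatives, and all 4 calls stood with the length trend out. Of 36 nuclear complex I genes 3 were higher (Ndufs8, Ndufa9 and Ndufv1; 8.33%, median 0.15), or 2 higher and 1 lower with the length trend out (median -0.07). Of 26 genes of complex IV and ATP synthase 2 were higher (Atp5c1 and Cox5a, the latter lost in 15 of 20 alternatives), or 5 higher and 1 lower without embryo 2_1, and 0 higher and 2 lower with the length trend out (median 0.24, -0.14 with the length trend out). No direction held for these nuclear lists as a whole.

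Of the 13 protein genes of the mitochondrial genome all 13 were fitted lower and 8 were called lower, with a median log2 fold change of -1.31. Of all genes 1.32% were called lower, and of abundant genes 5.7%. In 11 of the 13 every split embryo lay below every intact one, against 8.15% of all genes tested. mt-Nd5, of complex I, had 886, 914, 1084, 272, 566 and 655 CPM in embryos 1_1 to 3_2 and 1803, 1888 and 1489.9 CPM in the intact ones (log2 fold change -1.27 ± 0.20, adjusted p = 0.000535). Embryo 2_2 was the lowest. mt-Cytb, of complex III, had 5869.8, 7985, 11210.1, 2721, 3730.3 and 5538 CPM and 17242, 19400.4 and 10961 CPM. Here embryo 2_1 lay just above the lowest intact embryo (log2 fold change -1.39 ± 0.24, adjusted p = 0.00105). mt-Nd6, the gene on the light strand, lay at 188 to 448 CPM (median 332) and 975, 790.1 and 651 CPM (log2 fold change -1.31 ± 0.25, adjusted p = 0.0029). With the length trend out 9 were lower, against 0.819% of all genes. The count was 3 without split pair 3 or without intact embryo 2, 5 without split pair 2 or without intact embryo 1, 7 without embryo 2_1 and 13 with limma on the TPM. mt-Nd5 and mt-Nd6 were called in all 20 alternatives and mt-Co1 lost its call in 10 of 20. Most mitochondrial transcripts carry short tails and enter an oligo(dT) library with their own efficiency, whose part in the difference was not tested. Strand and multimapping settings are not given. Counts of mt-Nd6, on the opposite strand, and of mitochondrial genes with copies elsewhere in the genome are therefore uncertain.

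Among sugar genes, Eno1, an enolase of glycolysis, lay at 309 to 526 CPM (median 399.98) in the split and at 31.9, 68.5 and 76.7 CPM in the intact embryos (log2 fold change 2.80 ± 0.40, adjusted p = 0.00019), and its near-identical copy Eno1b at 79.4 to 154 CPM (median 108) and 4.24, 13.01 and 13.4 CPM (log2 fold change 3.47 ± 0.54, adjusted p = 0.00043). Pgam1 and Pgam2, phosphoglycerate mutases, were the other calls of the 28 glycolysis genes (4 higher, 0 lower, median 1.11). Without embryo 2_1 the median was 0.57, and with the length trend out 2 were higher. Pgam2 had 306, 97.3, 41.1, 98.9, 91.9 and 75.5 CPM in embryos 1_1 to 3_2, with embryo 1_1 far above the rest, and 7.52, 23.99 and 24.5 CPM in the intact ones. Reads of Eno1 and Eno1b can match both genes, so how the difference divides between them is uncertain. Pdk3, a kinase that switches pyruvate dehydrogenase off, lay at 2.36 to 10.9 CPM (median 5.78) in the split embryos and had no counts in the 3 intact ones. Against a floor of 3 counts per intact library (0.239 CPM) it was at least 25.04-fold higher (adjusted p = 0.00888).

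Of 33 genes of sterol and fatty acid synthesis tested 3 were higher and 0 lower (9.09%, median log2 fold change 0.82, 4 higher with the length trend out). Fdft1, squalene synthase and the first step committed to sterols, lay at 478 to 1427 CPM (median 850.1) in the split embryos and at 175, 83.8 and 97.7 CPM in the intact ones. The lowest split embryo had 2.73 times the level of the highest intact one (log2 fold change 2.90 ± 0.36, adjusted p = 5.23e-05). Idi1, isopentenyl diphosphate isomerase, lay at 67.8 to 215 CPM (median 126) and 38.7, 21.97 and 18.2 CPM (log2 fold change 2.31 ± 0.45, adjusted p = 0.003), and Ebp, a sterol isomerase, at 289 to 839 CPM (median 590.2) and 132, 65.3 and 152 CPM (log2 fold change 2.28 ± 0.44, adjusted p = 0.00349). Fdft1 and Ebp kept the call in all 20 alternatives and Idi1 lost it in 1. Insig1, which holds back the activation of sterol regulators, had 1764 ± 242 against 2447 ± 1357 CPM (log2 fold change -0.47 ± 0.68, adjusted p = 0.905). The promoters of the 2 called genes that the RefSeq table held are shown, because sterol promoters commonly pair a sterol response element with a CCAAT box. The core TCACNCCAC was in neither, and CCAAT (capitals, read here on the other strand) was in both. CCAAT was in 65.6% of the 32 promoters of tested sterol and fatty acid genes and in 37.4% of all promoters, and TCACNCCAC in 3.13% and 1.24%. The 250 bases before the start lie, in GRCm38.p6, at chrX:8193513-8193762 (Ebp, minus strand) and chr13:8885356-8885605 (Idi1, plus strand).
Ebp: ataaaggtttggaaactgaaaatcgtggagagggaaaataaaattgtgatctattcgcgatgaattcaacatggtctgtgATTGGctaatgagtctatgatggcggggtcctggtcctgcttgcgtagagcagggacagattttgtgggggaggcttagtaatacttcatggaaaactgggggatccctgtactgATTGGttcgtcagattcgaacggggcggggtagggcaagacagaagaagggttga
Idi1: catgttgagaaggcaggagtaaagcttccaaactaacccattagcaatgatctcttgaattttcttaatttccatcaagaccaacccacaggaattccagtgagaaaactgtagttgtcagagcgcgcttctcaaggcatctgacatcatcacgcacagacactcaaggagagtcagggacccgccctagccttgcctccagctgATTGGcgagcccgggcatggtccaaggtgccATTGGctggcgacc
Each held the CCAAT letters at 2 places, the nearest to the start 55 bases before it in Ebp and 14 in Idi1.

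Of 31 genes of thiol and oxidant defence tested, 11 were higher and 0 lower (median 0.81). The count was 8 without embryo 2_1, 4 with the length trend out, and 5 to 7 where any 1 pair or intact embryo was left out, the lowest without split pair 1. Gpx4, which reduces lipid peroxides, lay at 513 to 785 CPM (median 596) in the split embryos and at 178, 197 and 323 CPM in the intact ones (log2 fold change 1.41 ± 0.24, adjusted p = 0.000942). Prdx1, a peroxiredoxin, lay at 1959 to 2626 CPM (median 2180.4) and 711, 1003 and 767 CPM (log2 fold change 1.44 ± 0.28, adjusted p = 0.00311), and lost its call only with the length trend out. Glrx3, a glutaredoxin of iron-sulfur transfer, lay at 434 ± 4.71 against 204 ± 45.7 CPM (log2 fold change 1.09 ± 0.20, adjusted p = 0.00223), and kept its call in all 20 alternatives. Hmox1, heme oxygenase, lay at 20.4 to 56.6 CPM (median 41.3) and 4.32, 8.63 and 11.9 CPM (log2 fold change 2.24 ± 0.59, adjusted p = 0.033).

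Of 25 heat shock genes 5 were higher (20%) and 1 lower (4%), with the same counts once the length trend was out. In the stress response and p53 target lists below, 16.7% and 10.7% of the genes were called higher. Of all genes 3.42% were called higher and 1.32% lower, and of abundant genes 16.1% and 5.7%. Ahsa1, which stimulates the HSP90 ATPase, lay at 304 ± 5.42 against 93.1 ± 20.8 CPM (log2 fold change 1.71 ± 0.25, adjusted p = 0.000204), and Ptges3, the HSP90 cochaperone p23, was lower at 695 to 955 CPM (median 824) against 2799.6, 2579.8 and 1624 CPM (log2 fold change -1.49 ± 0.24, adjusted p = 0.000478). Of 30 genes of the integrated and unfolded protein stress response 5 were higher and 1 lower, with Phgdh, the entry enzyme of serine synthesis, at 255 ± 72.8 against 56.9 ± 36.7 CPM (log2 fold change 2.16 ± 0.40, adjusted p = 0.00216). The higher count was 3 without embryo 2_1 and 1 with the length trend out. Of 28 p53 targets, 3 were higher and 0 lower (2 higher with the length trend out), namely Tigar (log2 fold change 1.36 ± 0.21, adjusted p = 0.000354), Sfn (log2 fold change 2.11 ± 0.40, adjusted p = 0.00293) and Bax (log2 fold change 0.95 ± 0.27, adjusted p = 0.0473, lost in 14 of 20 alternatives). Sfn also is an epithelial gene. Cdkn1a, the cell cycle inhibitor p21, had 34.4, 25.9, 174, 37.2, 63.8 and 118 CPM in embryos 1_1 to 3_2 and 18.7, 17.5 and 23.3 CPM in the intact ones. All split embryos were above the intact ones, but the gene missed the threshold (log2 fold change 1.90 ± 0.55, adjusted p = 0.0512) and passed it in 5 of 20 alternatives. Of 32 genes of the Bcl2 family and caspases, Bax was higher and Birc6, a very long transcript, lower (log2 fold change -1.07 ± 0.24, adjusted p = 0.0104). Without embryo 2_1, as with the length trend out, 0 of these were higher and 1 lower.

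Cell cycle genes showed both directions. Of 39 genes of DNA replication 9 were higher and 0 lower (median 0.63, 4 higher with the length trend out). Rpa2, of the single-strand binding complex, lay at 147 to 204 CPM (median 174) and 58.3, 34.98 and 65.8 CPM (log2 fold change 1.76 ± 0.24, adjusted p = 0.000146), Tyms, thymidylate synthase, at 284 ± 20.1 against 129 ± 15.9 CPM (log2 fold change 1.13 ± 0.21, adjusted p = 0.00207), and Tk1, thymidine kinase, at 226 ± 14.5 against 88.1 ± 12.9 CPM (log2 fold change 1.36 ± 0.23, adjusted p = 0.00086). Of 39 mitotic genes 5 were higher (Cdc20, Kif22, Kif20a, Bub3 and Ccnb1) and 3 lower (Top2a, Cenpf and Cenpe), or 3 higher and 1 lower with the length trend out. The 5 and 3 genes were 12.8% and 7.69% of the list, near the 16.1% and 5.7% of abundant genes. Top2a, the topoisomerase of chromosome condensation, lay at 121 to 156 CPM (median 142) in the split embryos and at 458, 423 and 291 CPM in the intact ones (log2 fold change -1.47 ± 0.23, adjusted p = 0.000478), and kept its call in all 20 alternatives. Ccnd3, a G1 cyclin, lay at 52.6 to 188 CPM (median 119) and 17.9, 14.9 and 29.6 CPM (log2 fold change 2.59 ± 0.72, adjusted p = 0.0383), and Cdk4, its kinase, at 298 ± 41.7 against 132 ± 26.99 CPM (log2 fold change 1.17 ± 0.31, adjusted p = 0.0304). Both lost the call in 8 of 20 alternatives, and 1 of the 27 genes of this list was called with the length trend out.

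Of 27 epiblast and pluripotency genes 5 were higher and 0 lower (18.5%, against 3.42% of all genes and 16.1% of abundant ones). The share lay near that of abundant genes, and the median log2 CPM of the list was 5.56. The count was 1 with the length trend out, 0 with limma-voom and the origin as a random effect, and 3 without split pair 2, split pair 3 or intact embryo 1. The median log2 fold change of 0.52 became 0.20 without embryo 2_1 and 0.11 without split pair 3. Pou5f1 (Oct4), needed for the inner cell mass, had 47.9, 36.5, 26.9, 97.5, 71.6 and 70.3 CPM in embryos 1_1 to 3_2 and 6.92, 4.25 and 10.8 CPM in the intact ones. All split embryos were higher (log2 fold change 3.02 ± 0.78, adjusted p = 0.024), but the call was lost in 7 of 20 alternatives, and copies of this gene elsewhere in the genome make its counts uncertain. Utf1 (116 ± 59.4 against 29.04 ± 13.9 CPM, log2 fold change 1.99 ± 0.41, adjusted p = 0.00426), Dppa2 (902 ± 212 against 393 ± 49.5 CPM, log2 fold change 1.20 ± 0.25, adjusted p = 0.00514) and Dppa4 (278 ± 36.8 against 149 ± 15.4 CPM, log2 fold change 0.90 ± 0.18, adjusted p = 0.0037) were higher. Dppa3, a maternal factor that guards DNA methylation, lay at 3711 to 6593 CPM (median 6141) and 2917, 3852 and 2756 CPM, with overlap (log2 fold change 0.81 ± 0.19, adjusted p = 0.0129). Nanog did not pass (205 ± 52.7 against 185 ± 32.5 CPM, log2 fold change 0.14 ± 0.75, adjusted p = 0.999). Sox2 had 18.8, 3.57, 5.07, 7.39, 14.8 and 20.9 CPM in the split and 43.4, 23.2 and 24.6 CPM in the intact embryos (log2 fold change -1.37 ± 1.26, adjusted p = 0.752). Its lowest intact value lay above every split one, and it passed only in the 2 fits of blastocysts alone (adjusted p = 0.0498, and 0.0320 with the replicate block).

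None of the 29 trophectoderm genes tested was called (median 0.54, 0.04 with the length trend out). In the fit of the blastocyst groups alone 7 of 27 were higher and 3 lower, and 8 higher and 4 lower with the replicate block. Krt18, a keratin of the outer epithelium, had 3049.8, 2375, 1868, 1965, 2946 and 3389.8 CPM in embryos 1_1 to 3_2 and 718, 588 and 1165 CPM in the intact ones. The groups did not overlap (2603 ± 639.8 against 824 ± 302 CPM), yet the test did not pass (log2 fold change 1.66 ± 0.61, adjusted p = 0.172). Its partner Krt8 lay at 1299.6 to 2059 CPM (median 1793) and 547, 471 and 812 CPM (log2 fold change 1.53 ± 1.12, adjusted p = 0.626). In the fit of the blastocyst groups alone, where spread among earlier stages does not enter, Krt8 and Krt18 passed (adjusted p = 0.00215 and 0.00429). Cdx2 (24.1 ± 4.76 against 16.4 ± 3.37 CPM), Tfap2c (61.9 ± 19.7 against 61.9 ± 21.7 CPM), Tead4 (51.7 ± 6.67 against 52.6 ± 4.22 CPM) and Gata3 (806 ± 165 against 754 ± 257 CPM) had overlapping embryos and no call. Eomes, a trophectoderm factor, lay at 29.6 ± 4.27 against 56.3 ± 14.1 CPM (log2 fold change -0.93 ± 1.28, adjusted p = 0.895) and passed in the fit of blastocysts alone (adjusted p = 0.0331). Gata6, of the primitive endoderm, lay at 57.3 to 98.3 CPM (median 70.7) against 119.9, 153 and 130.1 CPM, without overlap (log2 fold change -0.90 ± 0.42, adjusted p = 0.316; 0.0122 in the fit of blastocysts alone). Of 19 primitive endoderm genes Cited1 alone was called, higher (log2 fold change 0.96 ± 0.27, adjusted p = 0.0391, lost in 13 of 20 alternatives), and 0 were called with the length trend out.

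Of 33 genes of junctions and cavitation F11r, a tight junction protein, was called higher (303 ± 55.3 against 116 ± 10.5 CPM, log2 fold change 1.39 ± 0.39, adjusted p = 0.0441, lost in 11 of 20 alternatives), and 0 were called with the length trend out. Cdh1, E-cadherin, lay at 104 ± 18.6 against 187 ± 14.8 CPM (log2 fold change -0.85 ± 0.44, adjusted p = 0.384), without overlap between the embryos, and passed in the fit of blastocysts alone (adjusted p = 0.0112). None of 23 genes of the Hippo pathway and YAP targets passed (median -0.27), and none of 9 tested genes that bind or turn over hyaluronan, the polymer of the culture gel (median 0.44). Of 40 genes of the actin cortex and its GTPases, Cfl1 (cofilin) and Pfn1 (profilin), both movers of actin monomers, were higher and Rap1b lower. The counts were 2 higher and 0 lower without embryo 2_1, and 1 higher and 2 lower with the length trend out. Cfl1 lay at 1299.8 to 1564 CPM (median 1388) and 511, 435 and 644 CPM (log2 fold change 1.42 ± 0.17, adjusted p = 5.23e-05), and Pfn1 at 2282 to 2757 CPM (median 2513) and 1120.4, 874 and 1229.5 CPM (log2 fold change 1.22 ± 0.21, adjusted p = 0.00127).

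Of 37 genes of DNA methylation and chromatin 1 was higher and 3 lower (median -0.50), or 1 higher and 2 lower with the length trend out (median -0.20), and the median length of these genes was 6853 bases. Smarca5, the ATPase of ISWI remodellers, lay at 134 to 237 CPM (median 171) in the split embryos and at 567, 508 and 368 CPM in the intact ones (log2 fold change -1.48 ± 0.19, adjusted p = 6.22e-05), and kept its call in all 20 alternatives. Suz12, of Polycomb complex PRC2 (189 ± 35.2 against 364 ± 76.9 CPM, log2 fold change -0.95 ± 0.22, adjusted p = 0.0102), and Chd1, a remodeller of open chromatin (51.7 ± 4.83 against 118 ± 18.6 CPM, log2 fold change -1.19 ± 0.32, adjusted p = 0.0333), were lower. Hdac1, a histone deacetylase, was higher (112 ± 9.57 against 33.2 ± 11.8 CPM, log2 fold change 1.76 ± 0.35, adjusted p = 0.00336). Of 27 imprinted genes Snrpn was higher (175 ± 27.7 against 73.7 ± 15.03 CPM, log2 fold change 1.25 ± 0.25, adjusted p = 0.00355) and Kcnq1ot1, an antisense RNA whose reads cannot be told from those of its host gene without a stated strand setting, lower (15.9 ± 8.37 against 72.4 ± 7.41 CPM, log2 fold change -2.19 ± 0.60, adjusted p = 0.037), and 0 were called with the length trend out.

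Some of the largest single changes lay outside these lists. Trim43b, one of a cluster of near-identical genes, had 15.3, 15.4, 28.7, 55.8, 8.13 and 2.85 CPM in embryos 1_1 to 3_2 and 2.31, 0.539 and 2.07 CPM in the intact ones (log2 fold change 3.70 ± 0.73, adjusted p = 0.00688). The sisters of pair 2 were the highest and those of pair 3 the lowest. Acot8, a peroxisomal thioesterase, lay at 27.6 to 45.3 CPM (median 35.7) and 4.84, 0.135 and 7.08 CPM (log2 fold change 3.18 ± 0.88, adjusted p = 0.0375, lost in 8 of 20 alternatives). Tmem41b, a lipid scramblase of the endoplasmic reticulum, lay at 1982 to 3872 CPM (median 2639) and 1128, 1150.2 and 741 CPM (log2 fold change 1.45 ± 0.23, adjusted p = 0.000435). Among the lower genes, Pdpn (podoplanin), a membrane glycoprotein, lay at 53.9 to 131 CPM (median 83.95) and 498, 569.9 and 371 CPM (log2 fold change -2.44 ± 0.63, adjusted p = 0.0314, lost in 8 of 20 alternatives). Sh3rf1, a scaffold of JNK signalling, lay at 18.04 to 35.1 CPM (median 23.3) and 178, 96.8 and 92.5 CPM (log2 fold change -2.27 ± 0.51, adjusted p = 0.00918), and Arl5c, a small GTPase, at 35.4 to 70.1 CPM (median 52.2) and 291, 183 and 129 CPM (log2 fold change -1.96 ± 0.32, adjusted p = 0.000612). Rftn1, a lipid raft protein, had no counts in any split embryo and 1.79, 3.03 and 0.061 CPM in the intact ones. Against the intact mean, a floor of 3 counts per summed pair was 21.5-fold lower (adjusted p = 0.00287). That mean rests on the intact embryos at 1.79 and 3.03 CPM, and the bound does not hold for the one at 0.061 CPM. The call was lost in 3 of 17 alternatives that tested it. Levels of Rftn1 in these blastocysts lie under a log2 CPM of 3, so it met the rule for naming through the other stages. Arid1b, Hs2st1, Yes1, Ubn2, Mib1, Thoc2l and Cdk12 completed the 15 largest decreases, with log2 fold changes of -2.08 to -1.90 and lengths of 7508 to 21438 bases.

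The same contrast was then taken one stage earlier. Between split and intact morulae (3 pairs against 5 embryos) 20 genes were called, 0.126% of those tested. The split effect at the blastocyst minus that at the morula passed for 218 genes in the higher direction (1.37%) and for 42 in the lower (0.265%). Of the 47 proteasome genes 20 passed this test, all higher, and 2 were called among morulae. Psmb7 had a log2 fold change of -0.23 among morulae (adjusted p = 0.552), and the stages differed by 1.97 ± 0.24 (adjusted p = 0.000206). Adrm1 was higher at both stages (1.02 among morulae, adjusted p = 0.0344) and more so at the blastocyst (difference 1.17 ± 0.29, adjusted p = 0.0436). Eif2s1 had -0.35 among morulae and a difference of 1.62 ± 0.19 (adjusted p = 0.000171). Of the 3 sterol genes all had a positive difference that passed, at 2.34 ± 0.46 for Fdft1, 3.01 ± 0.60 for Idi1 and 2.63 ± 0.59 for Ebp. Single genes named here were picked by their call at the blastocyst, an effect that is part of the difference. Pdpn, at 0.87 among morulae, differed by -3.31 ± 0.81 (adjusted p = 0.0472).

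Some genes were called at both stages. Ptges3 was called lower at both stages (-1.23 among morulae, adjusted p = 0.0246), and its difference between stages did not pass (-0.27 ± 0.31, adjusted p = 0.822). Smarca5 and Rap1b were lower among split morulae too (-0.84, adjusted p = 0.0459, and -1.68, adjusted p = 0.000773), and Kif22 and Psmd4 higher (1.27 and 0.76). None of the 13 mitochondrially encoded genes passed the test of the difference, and none was called among morulae, where mt-Cytb had -0.74 (adjusted p = 0.15). The median log2 fold change over the 13 was also below 0 among morulae, at -0.81, against -1.31 at the blastocyst.

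The comparison was repeated with 1 sister of each pair. With blastomere 1 of each pair alone 529 genes were called, of which 492 were among the 752, and with blastomere 2 alone 590, of which 546 were. With each split embryo as a sample of its own there were 816 calls, 668 of them shared. The proteasome count was 25 with blastomere 1 and 28 with blastomere 2.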

How the data were processed

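Each library holds the poly(A) RNA of 1 embryo, amplified by Smart-seq2. The deposited count table holds the authors' whole-number read counts for 37229 genes, with 13375 at 0 in all embryos. The deposited TPM table, of 15625 genes, was made by the authors from the same libraries. Per the submitters' processing notes the tools were FastQC, MultiQC, cutadapt, HISAT2, featureCounts and edgeR, and the build was GRCm39. Versions, annotation release, strand and multimapping settings are not given in the sources used here, so genes with near-identical copies or antisense partners are uncertain. Smart-seq2 counts hold no molecular identifiers, and longer transcripts gather more reads.

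Sister counts were summed, giving 18 units in 5 groups (13 residual degrees of freedom). Genes were filtered with filterByExpr and tested with edgeR 4.0.16 (quasi-likelihood F test, robust, TMM) in R 4.3.3, with Benjamini-Hochberg adjustment over 15875 genes. The contrast of split with intact blastocysts used the spread of all 5 groups. limma 3.58.1 (pseudocount 1 on TPM) and DESeq2 1.42.0 served as alternatives, 20 in all, of which the fits without embryo 2_1 and with the length trend out were chosen after seeing the data. Gene lengths (15504 genes) were derived from the deposited counts and TPM, scaled on the lengths of the 13 mitochondrial protein genes in GENCODE's mouse transcripts. The scripts were tested on simulated data. An embryo's CPM keeps the ratio of its sister's scaling. The labels do not pair split with intact embryos by replicate number. Correlations of same-numbered deviations were -0.0086, 0.0585 and 0.0849, and those of unlike numbers lay between -0.1099 and 0.0452. Whether same-numbered units share a batch or litter was not tested.

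Named genes were, first, the 15 largest changes in each direction among called genes whose embryos did not overlap. Their log2 CPM had to average 3 or more over all 18 units. To these came the 6 largest differences of mean CPM in each direction, up to 4 called members with the smallest p in each list, and a panel of lineage markers. Members and lists were chosen with earlier results of these data known, and 5 lists and 26 further genes were chosen after their values were seen.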

Additional observations from a re-analysis of the deposited data

Results flagged for a closer look

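In Pgam2, a phosphoglycerate mutase, embryo 1_1 had 306 CPM and lay apart from the other 5 split embryos by more than Dixon's 95% limit. It was the 1 such case among 46 measures checked, and chance flags about 1 in 20 groups.

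Among the genes named for the largest folds or CPM differences, 10 had a split effect that differed between blastocyst and morula by edgeR's test of the difference (log2, blastocyst minus morula). Over all genes 218 passed this test in the higher and 42 in the lower direction. The named genes had been picked for their split effect at the blastocyst, which is part of the difference. Their count of 10 therefore describes a choice and cannot be set against the counts over all genes. Higher at the blastocyst were Pdk3 by 10.61, Fdft1 by 2.34, Tmem41b by 2.10, Prdx1 by 1.80, Eif5a by 1.43 and Ubb by 1.33. Lower were Rftn1 at -9.76, Pdpn at -3.31, Cstf2t at -2.62 and Pcf11 at -2.16. The values of Pdk3 and Rftn1 come from fits with a group at 0 and are no measure of size.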

How the results depend on the processing

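The 752 calls became 1407 with DESeq2 (880 higher, 527 lower), 2037 with the blastocyst groups alone (1161 higher, 876 lower) and 402 with the length trend out (272 higher, 130 lower). With the replicate block they became 2218 (1289 higher, 929 lower). Higher calls were 285 with limma-voom and 361 with blastomere 1 alone, and lower calls were 564 with limma on TPM. With 1 pair or intact embryo left out, 408 to 552 genes were called, 315 to 415 higher and 80 to 157 lower. Calls among list members went from 185 to 344 with the blastocyst groups alone and to 114 with the length trend out. Of 2828 values of the 142 named genes under the alternatives, 2472 kept direction and side of the threshold, 335 lost the call, 20 gained it and 1 changed sign. That was Birc6, at 0.017 with the length trend out. The causes were not tested. No value could be had for 6 of the 142 with DESeq2, for 3 with the stricter filter, and for 1 each with blastomere 1 alone, with the blastocyst groups alone and with the block.

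Depth was lowest in the intact embryos, and 3 pairs against 3 embryos limit single-value permutation tests to p = 0.1 or more.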
